A study of Mus musculus with 13 samples.

Results

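Tex101, Ly6k, Dpep3 and Ace encode proteins of the male germ cell surface, and they are 4 of the 30479 genes in the deposited table. They were chosen by name, because their proteins are known to act together, at a time when the values of all 13 libraries were known. Their levels are therefore given as a description, with the spread between libraries and without a test. The libraries came from mice at postnatal day 25 that differed in genotype at Wfdc15a, a gene of the WAP family of small secreted proteins. Sorted round spermatids, the haploid cells that follow meiosis, gave 3 libraries of knockout mice (KO), 2 of heterozygous mice (Het) and 2 of wild-type mice (WT), with 100 to 200 cells in each. Whole testis gave 3 KO, 1 Het and 2 WT libraries, each made from about 2 ng of RNA. The sources used here describe neither the targeted allele nor the strain, and they name no treatment. Nothing in them says that libraries of a group came from separate mice, so a p-value speaks only to the variation among these libraries, and that variation may be technical in origin.

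TEX101 is a glycoprotein of the Ly6/uPAR family that is held on the germ cell membrane by a glycosylphosphatidylinositol (GPI) anchor. In mice it binds LY6K, a family member with the same kind of anchor, and DPEP3, a GPI-anchored membrane dipeptidase. Mice that lack Tex101 or Ly6k make sperm without mature ADAM3, a surface protein that sperm need to pass from the uterus into the oviduct, and the males are infertile. The testis form of ACE, a peptidase made in haploid germ cells from an internal start of the Ace gene, releases TEX101 from sperm in the epididymis. The measurements concern RNA only.

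RNA was copied by Smart-seq2, a strand-blind method for the full length of polyadenylated RNA, and levels are given in RPM (a gene's reads scaled to a common library size of 1000000 reads). Library totals ran between 10825690 and 20927428 reads in round spermatids and between 7375270 and 18438704 reads in testis. KO replicate 1 of testis had the lowest total. It held 15435 genes with reads, against 20115 to 22587 in the other testis libraries. A count of 0 allows a level of up to 3 reads, between 0.143 and 0.407 RPM by library, a limit for counting error alone. Wfdc15a itself lay between 48.1 and 97.9 RPM in KO, 65.0 and 71.5 RPM in Het libraries, against 234 and 267 RPM in WT round spermatids. In testis it lay between 36.8 and 116 RPM in KO and 207 and 212 RPM in WT, with 48.4 RPM in the Het library, and with the deleted part not known these reads check the labels only in part. In both cell types the leading principal component put KO replicates 2 and 3 and every Het library on one side (set 2) and KO replicate 1 with both WT libraries on the other (set 1). That component held 55.6% of the variance in round spermatids and 71.6% in testis. The sets thus come from the values themselves, and a split by set is built in for many genes. The share of all genes with such a split was not counted. No label gives a batch that follows these sets. The sets differed in markers of other cells: the summed level of 8 Sertoli cell markers was 91.2 to 238 RPM in set 2 and 2.44 to 9.32 RPM in set 1 of the round spermatids, and 1835 to 1987 RPM in set 2 and 18.6 to 37.7 RPM in set 1 of testis. Between 2 and 4 of those 8 markers were at 0 in each round spermatid library of set 1. The summed level of 8 spermatid markers was 780 to 1138 RPM in set 2 and 1242 to 1480 RPM in set 1 of the round spermatids, and 390 to 520 RPM in set 2 and 1130 to 3935 RPM in set 1 of testis. The summed spermatid level thus did not follow the sort, since WT testis exceeded every sorted library. Within that list the genes differed. Acrv1, Izumo1 and Spaca1, which encode acrosomal proteins and were picked out after their values were seen, were each higher in all 7 sorted libraries (Spaca1 at 357 to 458 RPM) than in all 6 testis libraries (Spaca1 at 36.4 to 184 RPM). That was so for 4% of the 20085 tested genes. Tnp1, Tnp2, Prm1 and Prm2, which encode transition proteins and protamines, were highest in WT testis (Prm1 at 1106 and 546 RPM there). The libraries of set 2 also held RNA of Sertoli, Leydig and stromal marker genes. In round spermatids the stromal markers summed to 464 to 1031 RPM in set 2 and 2.72 to 4.61 RPM in set 1, and the Leydig markers to 19.1 to 70.3 RPM in set 2 and 0.294 to 1.40 RPM in set 1. In bulk libraries, fewer cells of a type and less RNA per cell cannot be told apart.

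The genes lie on 4 chromosomes of mm10. Tex101 spans chr7:24668007-24676675 on the minus strand, with 3 annotated transcripts, and no other gene of the table overlaps it. Dpep3 spans chr8:105973513-105979429 on the minus strand, with 1 annotated transcript and no overlapping gene. Ly6k spans chr15:74796874-74799986 on the minus strand and lies inside Gm17189, an antisense gene on the plus strand. Ace spans chr11:105967945-105989964 on the plus strand and overlaps the antisense gene Gm11651. Its annotation holds a long transcript from the first base and a shorter one from base 105975208, the position of the internal start. The deposited counts covered whole gene spans, introns included, and gave a read to every gene that overlaps it, as the counts of nested genes showed. Gm17189 accordingly had 1.01 to 1.06 times the reads of Ly6k in every library, and reads of the pair cannot be told apart. Gm11651 had 0.276 to 0.632 times the reads of Ace, and the table gives 1 value for both forms of Ace.

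RefSeq promoters on GRCm38.p6 were at hand for 3 of the 4 genes. The 250 bases before a start are shown for Tex101 and Dpep3, the members whose levels varied most and least, and for the internal start of Ace, which the shorter transcript uses. Capitals mark the core of the MYB motif (CNGTT, either strand).
Tex101, chr7:24672051-24672300, minus strand: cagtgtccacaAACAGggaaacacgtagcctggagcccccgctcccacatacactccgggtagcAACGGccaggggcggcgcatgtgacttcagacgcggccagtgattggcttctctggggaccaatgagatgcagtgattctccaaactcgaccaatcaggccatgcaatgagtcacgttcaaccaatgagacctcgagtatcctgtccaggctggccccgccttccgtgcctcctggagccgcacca
Dpep3, chr8:105979420-105979669, minus strand: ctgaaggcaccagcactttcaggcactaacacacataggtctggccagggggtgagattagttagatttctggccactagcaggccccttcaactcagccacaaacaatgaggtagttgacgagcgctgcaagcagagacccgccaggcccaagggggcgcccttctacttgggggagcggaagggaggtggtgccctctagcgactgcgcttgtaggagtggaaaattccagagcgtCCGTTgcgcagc
Ace internal start, chr11:105974939-105975188, plus strand: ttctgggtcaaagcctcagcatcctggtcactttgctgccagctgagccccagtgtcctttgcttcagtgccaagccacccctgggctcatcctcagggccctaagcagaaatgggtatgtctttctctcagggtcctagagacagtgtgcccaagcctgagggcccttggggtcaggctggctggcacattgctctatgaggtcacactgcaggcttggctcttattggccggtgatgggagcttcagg
The Tex101 start lies inside the gene's span, where the shortest of its 3 transcripts begins. In windows of 250 bases before to 50 after the start, the MYB core lay at bases -239 to -235 and -186 to -182 of Tex101 on the opposite strand, and at bases -12 to -8 of Dpep3. These letters are not in either Ace window, and 80.3% of all 32851 promoters hold them. The cAMP response element core TGACGT, found in 7.51% of promoters, and the X-box half-site GTTGCC, found in 12.5%, were in none of these windows. A match describes the letters and shows no binding.

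Tex101 was the most variable of the members, between 6.82 and 472 RPM over the 13 libraries, a 69.2-fold range. In round spermatids it had 19.2, 155 and 43.1 RPM in the KO libraries, 101 and 89.5 RPM in the Het libraries, and 12.6 and 6.82 RPM in the WT libraries. Every KO library lay above both WT libraries, which was so for 16.6% of the 18075 tested genes, and every Het library did so too, which was so for 40.6%. In testis it had 41.6, 445 and 472 RPM in the KO libraries, 449 RPM in the single Het library, and levels of 254 and 213 RPM in the WT libraries. KO replicate 1 lay below both WT libraries and KO replicates 2 and 3 above them, so the testis groups overlapped. The mean was 72.6 ± 72.8 RPM in KO (SD, n = 3), 95.0 ± 7.82 RPM in Het (SD, n = 2) and 9.69 ± 4.06 RPM in WT (SD, n = 2) round spermatids. In testis it was 319 ± 241 RPM in KO (SD, n = 3) and 233 ± 29.2 RPM in WT (SD, n = 2). From low to high, WT round spermatids stood alone at the bottom, KO and Het round spermatids overlapped, and testis KO spanned the levels of testis WT and Het.

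**Figure D1:**
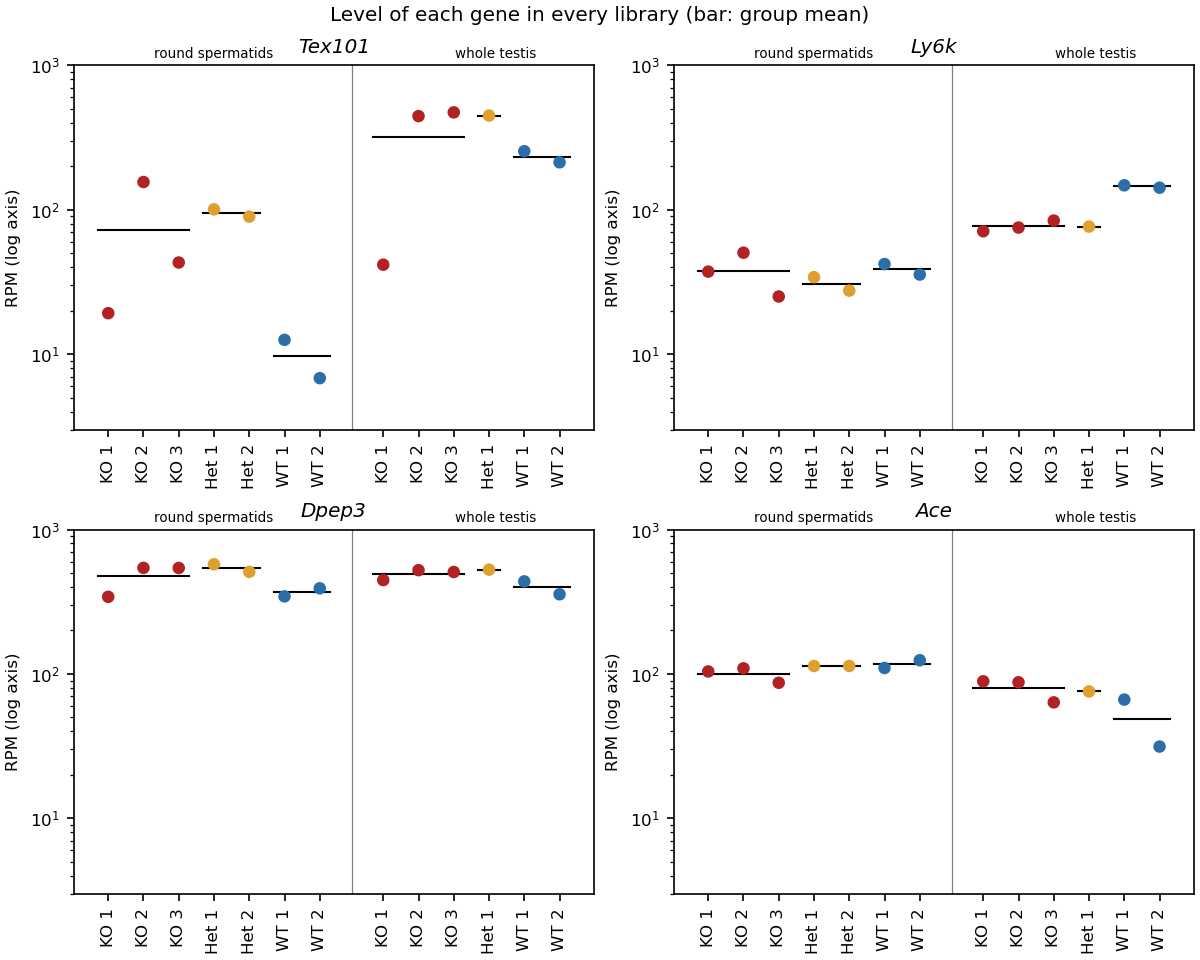
Level of Tex101, Ly6k, Dpep3 and Ace in RPM on a log axis, 1 point per library (red KO, orange Het, blue WT), with round spermatids on the left of each panel, whole testis on the right and a bar at each group mean. Tex101 runs between 6.82 and 472 RPM, while Dpep3 stays between 342 and 574 RPM.

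On the log2(RPM + 1) scale, which understates changes of low genes, Tex101 differed by 2.33 (SE 0.66) between KO and WT round spermatids and by 3.22 (SE 0.73) between Het and WT. The median over all tested genes was 0.03 for KO minus WT and 0.23 for Het minus WT. Both differences of Tex101 kept their sign under every alternative run. Within set 1, KO replicate 1 was 0.97 above the WT mean, and within set 2 the KO libraries differed from the Het libraries by -0.21. In testis KO minus WT was -0.17 (SE 1.05), and it was 0.97 without KO replicate 1, 0.08 after quantile normalization and 0.04 with voom. There, KO replicate 1 lay 2.45 log2 units below the WT mean, a value of -2.45 within set 1, and KO minus Het within set 2 was 0.03. KO replicate 1 also had the fewest reads and the fewest genes with reads of the testis libraries. The 3 testis libraries at 445 to 472 RPM were those with 1835 to 1987 RPM of summed Sertoli markers. The 4 round spermatid libraries at 43.1 to 155 RPM were those with 91.2 to 238 RPM of these markers. The summed level of 6 spermatocyte markers also went with these libraries. It was 565 to 710 RPM in set 2 and 365 to 408 RPM in set 1 of the round spermatids. In testis it was 1375 to 1531 RPM in set 2 and 333 to 615 RPM in set 1. Sycp3, Hormad1, Meiob and Dmc1 also split by set singly in both cell types, and Spo11 in testis alone. Sycp1 did not, with 222 RPM in KO replicate 1 and 221 RPM in the Het library of testis. In round spermatids Sycp1 had 102 RPM in WT replicate 1 and 76.9 RPM in KO replicate 3. The part of other cell types in the Tex101 levels was not tested.

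WT round spermatids held less Tex101 than WT testis, 12.6 and 6.82 RPM against 254 and 213 RPM, a fitted difference of -4.50 (SE 1.09) where the median of all genes was 0.20. The sorted cells lay lower in both libraries, as was so for 23.7% of 20085 tested genes. These 4 libraries all belong to set 1, and their Sertoli markers summed to 7.36 to 9.32 RPM in round spermatids and 32.8 to 37.7 RPM in testis. TEX101 protein is known from spermatocytes and spermatids. The summed level of 6 spermatocyte markers was 365 to 401 RPM in WT round spermatids and 333 to 505 RPM in WT testis, so the ranges overlapped. Over all genotypes, round spermatids (6.82 to 155 RPM) and testis (41.6 to 472 RPM) overlapped.

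Ly6k, which encodes the partner that TEX101 protein depends on in mice, separated the cell types. In round spermatids it had 37.3, 50.4 and 25.1 RPM in the KO libraries, 34.1 and 27.5 RPM in the Het libraries, and 42.1 and 35.6 RPM in the WT libraries. In testis it had 70.9, 75.2 and 84.1 RPM in the KO libraries, 76.4 RPM in the single Het library, and levels of 148 and 142 RPM in the WT libraries. Every round spermatid library lay below every testis library, which 1.87% of all 20085 tested genes also did. WT round spermatids minus WT testis was -1.88 (SE 0.35). All of these values include the reads shared with Gm17189.

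In testis the KO libraries, at 76.7 ± 6.72 RPM (SD, n = 3), and the Het library lay below both WT libraries, at 145 ± 3.88 RPM (SD, n = 2). All KO libraries lay below all WT libraries for 14.1% of the 18570 genes tested in testis. The difference was -0.91 (SE 0.32), or -1.54 relative to the median of all genes, and it was negative in every alternative run, between -1.85 with libraries centred on their median and -0.86 with 1 library left out. KO replicate 1, the KO library of set 1, differed from the WT mean by -1.02, and within set 2 KO minus Het was 0.06. The spermatid markers of testis summed to 390 to 1130 RPM in KO and 1786 to 3935 RPM in WT, a fall carried by Tnp1, Tnp2, Prm1 and Prm2. Spaca1 of the same list had 90.3 to 184 RPM in KO and 36.4 to 37.1 RPM in WT testis, and Acrv1 and Izumo1 were also higher in every KO than in every WT testis library. That was so for 28.2% of the genes tested in testis. The part of spermatid number or stage in the Ly6k difference was not tested. In round spermatids KO (37.6 ± 12.7 RPM, SD, n = 3) and WT (38.8 ± 4.59 RPM, SD, n = 2) overlapped, with a difference of -0.10 (SE 0.31) that changed sign under library quality weights (0.21), the replicate block (0.16), without KO replicate 3 (0.16) and without WT replicate 1 (0.02). Both Het libraries lay below both WT libraries there, as 23.2% of genes did, with a fitted difference of -0.33 (SE 0.34).

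Dpep3, the dipeptidase that binds TEX101, was the steadiest member and the most abundant per length. In round spermatids it had 342, 542 and 542 RPM in the KO libraries, 574 and 509 RPM in the Het libraries, and 344 and 392 RPM in the WT libraries. In testis it had 446, 523 and 508 RPM in the KO libraries, 527 RPM in the single Het library, and levels of 437 and 356 RPM in the WT libraries. Its highest level was 1.68 times its lowest, and it stood between the 97.8th and 99.6th percentile of detected genes by RPM per kb of exons in every library. In round spermatids KO replicates 2 and 3 and both Het libraries lay above WT and KO replicate 1 lay below both WT libraries, so the KO and WT groups overlapped. In testis all 3 KO libraries lay above both WT libraries, which 28.2% of tested genes also did.

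The fitted differences of Dpep3 were 0.34 (SE 0.22) for KO minus WT and 0.56 (SE 0.24) for Het minus WT in round spermatids, and 0.32 (SE 0.26) for KO minus WT in testis. The testis difference was -0.32 relative to the median of all genes, which was 0.63, and it was -0.63 with libraries centred on their median. With the set as a covariate both round spermatid differences changed sign, to -0.10 and -0.11. The WT libraries are all of set 1, so the first of these is KO replicate 1 minus the WT mean. The second takes the step between the sets from the KO libraries alone. Within set 2, KO minus Het was 0.00 in round spermatids and -0.03 in testis. Dpep3 followed the sets in round spermatids, with 509 to 574 RPM in set 2 and 342 to 392 RPM in set 1, and the share of all genes that did so was not counted. WT round spermatids and WT testis overlapped, with a difference of -0.10 (SE 0.26).

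Ace, the enzyme that releases TEX101 from sperm, stood higher in sorted cells than in tissue in the WT libraries. In round spermatids it had 104, 109 and 86.9 RPM in the KO libraries, 114 RPM in each Het library, and 109.9 and 124 RPM in the WT libraries. In testis it had 88.9, 87.6 and 63.6 RPM in the KO libraries, 75.6 RPM in the single Het library, and levels of 66.4 and 31.4 RPM in the WT libraries. WT round spermatids minus WT testis was 1.33 (SE 0.36), with 0.81 after quantile normalization and 0.99 with libraries centred. Both WT round spermatid libraries lay above both WT testis libraries, which 38.6% of genes also did. KO replicate 3 of the round spermatids, at 86.9 RPM, lay below KO replicates 1 and 2 of testis, so over all genotypes the cell types overlapped.

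The 3 KO round spermatid libraries lay below both WT libraries for Ace, the highest KO at 109 RPM against the lowest WT at 109.9 RPM, as was so for 19.4% of the 18075 genes tested. The difference was -0.23 (SE 0.20), and Het minus WT was -0.04 (SE 0.21). In testis KO minus WT was 0.78 (SE 0.46) and the groups overlapped. It was 0.15 relative to the median of all genes, and with libraries centred on their median it was -0.17. Without WT replicate 2, the lowest Ace library, the testis difference was 0.25. Reads of Gm11651 and of both Ace forms are part of these values.

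**Figure D2:**
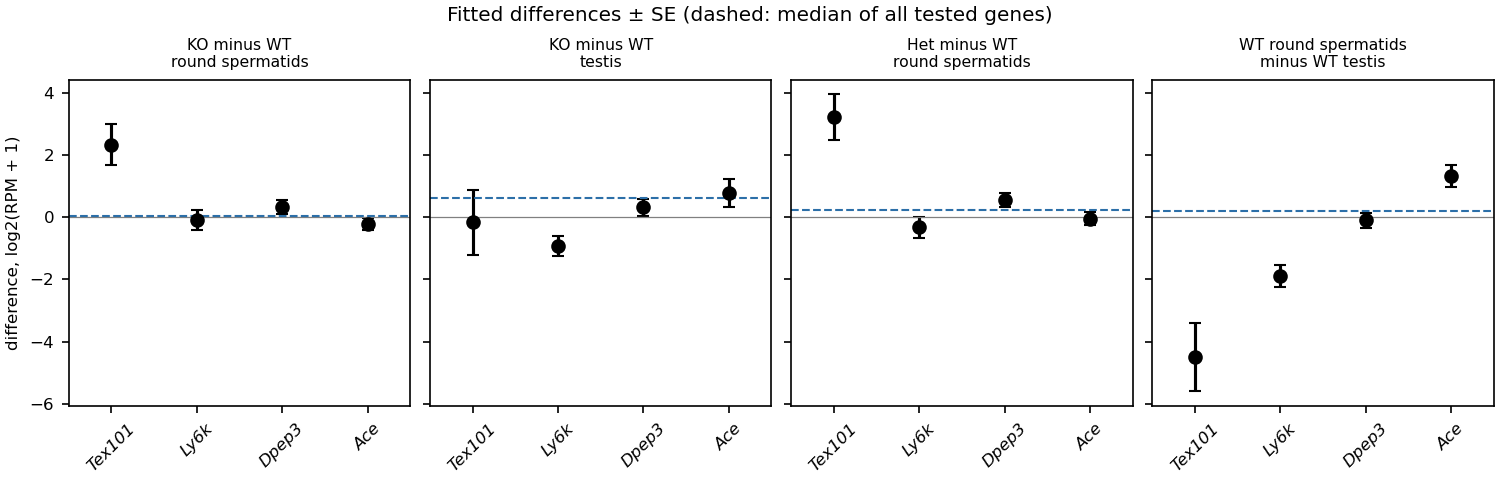
Fitted differences of the 4 genes on the log2(RPM + 1) scale with standard errors, in 4 panels: KO minus WT in round spermatids, KO minus WT in testis, Het minus WT in round spermatids, and WT round spermatids minus WT testis. The dashed line is the median of all tested genes, and Tex101 holds the highest value (3.22, Het minus WT) and the lowest (-4.50, WT round spermatids minus WT testis).

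Set side by side, 1 of the 4 genes (Tex101) lay higher and 1 (Ace) lower in every KO than in every WT round spermatid library, where 16.6% of all tested genes lay higher and 19.4% lower. In testis 1 (Dpep3) lay higher and 1 (Ly6k) lower, where 28.2% of all tested genes lay higher and 14.1% lower. The KO minus WT difference in round spermatids less that in testis was 2.50 (SE 1.41) for Tex101, 0.81 (SE 0.45) for Ly6k, 0.02 (SE 0.33) for Dpep3 and -1.01 (SE 0.46) for Ace, and the median of all genes was -0.48. The Tex101 value was 1.36 without testis KO replicate 1. In that test of a difference between cell types 2.13% of genes passed, and 1.84% of all genes did so with a lower value, and the members were not tested. The sign for Dpep3 turned under several alternatives, with -0.34 after quantile normalization. In testis the Het library stood 0.94 above the WT mean for Tex101, 0.42 for Dpep3 and 0.71 for Ace and differed by -0.91 for Ly6k, and the median over genes was 1.02. These comparisons share the WT libraries of each cell type.

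Levels between genes were compared per length of exons, as medians over the libraries of a cell type. In round spermatids (n = 7) they were 299.7 RPM per kb for Dpep3, 42.9 for Ly6k, 26.0 for Tex101 and 20.8 for Ace. In testis (n = 6) they were 281 RPM per kb for Dpep3, 211 for Tex101, 96.8 for Ly6k and 13.4 for Ace. Dpep3 led in both cell types, while Ly6k stood above Tex101 in round spermatids and below it in testis. Because the counts also cover introns, the median per kb of gene span was taken too. It kept the testis order, with 40.3 for Tex101 and 25.8 for Ly6k, and put Ace (4.99) level with Tex101 (4.97) below Ly6k (11.4) in round spermatids.

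The ratio of Tex101 to Ly6k, both in RPM per kb of exons, was higher in every library of set 2 than in every library of set 1 of its cell type. The sets were drawn from these same data, and how many gene pairs split so was not counted. In round spermatids it was 0.258, 1.54 and 0.860 in the KO libraries, 1.48 and 1.63 in the Het libraries, and 0.149 and 0.0959 in the WT libraries. In testis it was 0.294, 2.96 and 2.81 in the KO libraries, 2.94 in the Het library, and 0.862 and 0.750 in the WT libraries. Tex101 thus exceeded Ly6k per length in KO replicate 2 and the Het libraries of round spermatids, and in KO replicates 2 and 3 and the Het library of testis, all of set 2. Whether a ratio lies above 1 depends on the lengths used, while its order across libraries does not. The ratio of Dpep3 to Ly6k in testis was 3.07, 3.39 and 2.95 in the KO libraries, 3.37 in the Het library, and 1.45 and 1.22 in the WT libraries. The ratio of Tex101 to Dpep3 had a wider range, with 0.952 in KO replicate 3 of testis and 0.0178 in WT replicate 2 of round spermatids. For Dpep3 to Ly6k in testis, KO replicate 1 stood with the other KO libraries and apart from WT.

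**Figure D3:**
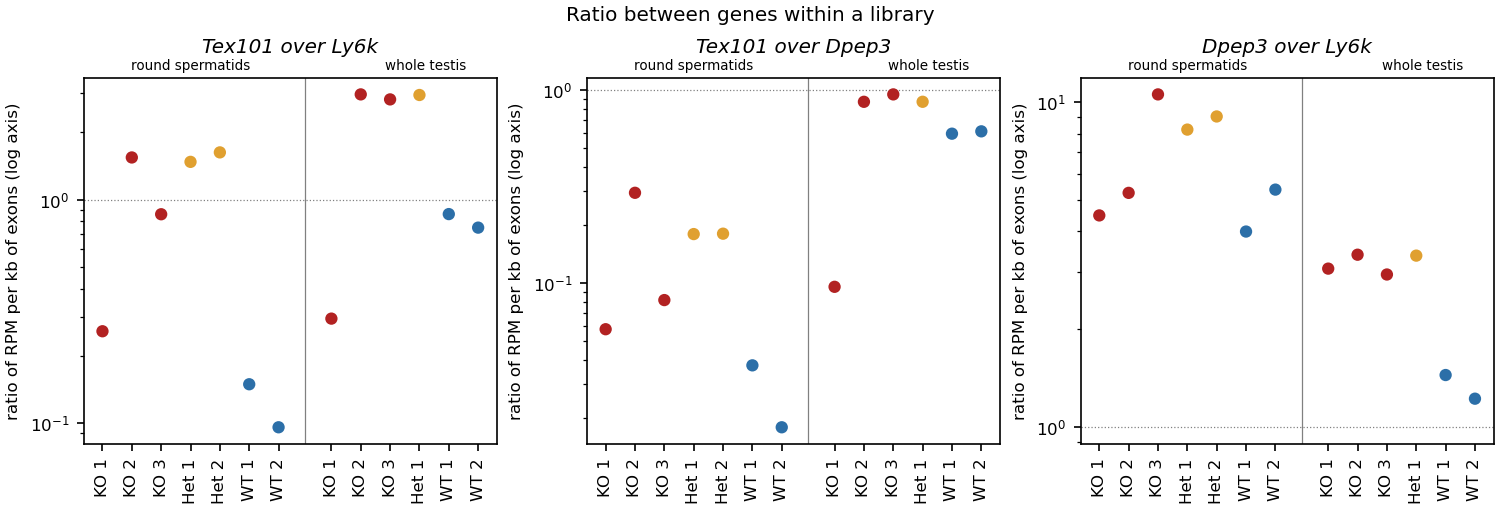
Ratio of 2 genes within each library, in RPM per kb of exons on a log axis with its own range in each panel: Tex101 over Ly6k, Tex101 over Dpep3 and Dpep3 over Ly6k (red KO, orange Het, blue WT, round spermatids on the left of each panel). Tex101 over Ly6k is between 2.81 and 2.96 in KO replicates 2 and 3 and the Het library of testis, and 0.294 in KO replicate 1.

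The members did not share a profile over the libraries. The distance between profiles was the root-mean-square difference of log2(RPM + 1) after each gene was centred on its own mean over the 13 libraries. Tex101 was 1.55 from Ly6k, 1.78 from Dpep3 and 2.23 from Ace, while Dpep3 and Ace were 0.52 apart. Predicted genes named Gm plus digits, Rik clones and pseudogenes were left out of the search for near profiles. Gm17189, which shares its reads with Ly6k, was therefore not ranked. Among the 10049 other genes that remained with a mean of at least 5 RPM, the nearest to Tex101 were Fabp3 (0.60), Skap2 (0.66), P2rx2 (0.72), Cst3 (0.76) and Mcfd2 (0.78). The nearest to Ly6k were Rpl7a (0.23), Naxe (0.24), Lsm4 (0.26), Ssr2 (0.26) and Tbc1d7 (0.29). Dpep3 had Sugp1 (0.14), Pomt1 (0.17), Crat (0.17) and Fam178b (0.18), and Ace had Tbc1d23 (0.15), Dgcr2 (0.17), Nabp1 (0.17), Uqcc1 (0.18) and Tsks (0.18). A gene that varies little has small distances to many others, and the root-mean-square spread of the members themselves was 1.91 for Tex101, 0.79 for Ly6k, 0.50 for Ace and 0.26 for Dpep3.

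Tex101 and Ly6k each lie beside other genes of the Ly6/uPAR family, whose products share a compact disulfide-rich fold. Lypd10 and Lypd11 lie 32.6 and 38.3 kb from Tex101 on chromosome 7, and Gml lies 13.5 kb from Ly6k on chromosome 15. Lypd10 had 20.2, 34.3 and 32.2 RPM in KO, 31.2 and 37.6 RPM in Het libraries, against 22.9 and 12.3 RPM in WT round spermatids. In testis Lypd10 had 20.5, 138 and 132 RPM in KO, 181 RPM in the Het library, against 159 and 149 RPM in WT libraries. KO replicate 1 of testis was thus the lowest testis library for Lypd10, as it was for Tex101. That library also had the fewest reads and the fewest genes with reads in testis. Gml had 10.3, 12.1 and 9.44 RPM in KO, 15.1 and 14.4 RPM in Het libraries, against 11.1 and 7.26 RPM in WT round spermatids. In testis Gml had 34.7, 66.3 and 67.0 RPM in KO, 81.6 RPM in the Het library, against 68.9 and 60.5 RPM in WT libraries, all above every round spermatid library. Such a split between the cell types held for 1.87% of tested genes.

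These neighbours passed the test over all genes in the comparison of WT round spermatids with WT testis, in which 11.5% of 20085 genes passed, 9.09% higher and 2.39% lower. Gml fell by 2.71 on the log2 scale (SE 0.42, limma adjusted p = 0.00249), and it kept its call in all 22 alternatives. Lypd10 fell by 3.12 (SE 0.75, limma adjusted p = 0.0212) and Lypd11 by 2.68 (SE 0.68, limma adjusted p = 0.0263), and both kept their calls in 18 of 22. Those calls were lost when any 1 of the 4 WT libraries was left out, with an adjusted p of up to 0.163 for Lypd10 and 0.171 for Lypd11. Further along chromosome 15, Ly6m was higher in WT round spermatids, at 12.4 and 9.86 RPM against 0 and 1.96 RPM in WT testis (2.81, SE 0.70, limma adjusted p = 0.0242, kept in 18 of 22). The Ly6m call was lost without testis WT replicate 1 and without either WT library of round spermatids. Of 26 family genes tested besides Tex101 and Ly6k, 1 rose and 3 fell, and the median was -0.38 beside 0.20 for all genes. Lypd4, a GPI-anchored sperm protein 188 kb from Tex101, was the most abundant neighbour at 620 to 2363 RPM over the libraries and did not pass (-0.37, SE 0.43, limma adjusted p = 0.696).

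ADAM3 is the sperm protein that depends on TEX101 and LY6K in mice, and 19 genes for its maturation and for sperm migration were followed. In WT round spermatids against WT testis 3 of 19 rose and none fell, where 9.09% of all 20085 tested genes rose and 2.39% fell. The list median was 0.28 beside 0.20 for all genes, or -0.07 beside -0.15 with libraries centred on their median. The 3 genes were Adam1a, whose product pairs with ADAM2, and Clgn and Pdilt, which encode testis chaperones of the endoplasmic reticulum. Adam1a had 82.3 and 99.7 RPM in WT round spermatids against 21.3 and 10.3 RPM in WT testis (2.53, SE 0.41, limma adjusted p = 0.00299) and kept its call in all 22 alternatives, though 3 other genes overlap it. Clgn had 615 and 612 RPM against 161 and 189 RPM (1.81, SE 0.48, limma adjusted p = 0.0325), with its call kept in 13 of 22. Pdilt had 118 and 143 RPM against 25.1 and 21.5 RPM (2.43, SE 0.68, limma adjusted p = 0.0418), with its call kept in 12 of 22, and 1 other gene overlaps it. Both calls were lost, among others, after quantile normalization and without either WT library of each cell type, at adjusted p of up to 0.183 for Clgn and 0.205 for Pdilt.

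Between KO and WT, no gene passed in either cell type (limma, 0 of 18075 in round spermatids and 0 of 18570 in testis, and voom also called 0), a share of 0%. At an unadjusted p under 0.05 stood 3813 genes in round spermatids and 4380 in testis. Without KO replicate 1, 5514 genes passed at an adjusted p under 0.05 in round spermatids and 11976 in testis. Of the 47 other Ly6/uPAR genes measured, 23 were tested in each cell type. Their differences were positive for 4 and negative for 19 in testis, with a median of -0.66 beside 0.63 for all genes (-0.18 without KO replicate 1), and positive for 14 and negative for 9 in round spermatids, with a median of 0.15. Of the 19 ADAM3 genes, 11 differences were positive and 8 negative in round spermatids, with a median of 0.14 beside 0.03 for all genes, and 8 were positive and 11 negative in testis, with a median of -0.34 beside 0.63. That testis median was -0.02 without KO replicate 1 and -0.81 without WT replicate 2, and the round spermatid median was -0.16 without WT replicate 1 and -0.01 without KO replicate 2. Adam2, whose product is the partner of ADAM proteins on sperm, had 998, 1470.0 and 1706 RPM in KO, 1437 and 1551 RPM in Het libraries, against 550 and 590 RPM in WT round spermatids. Every KO and Het library lay above both WT libraries, as was so for 16.6% of tested genes in KO and 40.6% in Het. The Adam2 difference of 1.25 (SE 0.21) between KO and WT had a limma adjusted p of 0.121. Adam3 itself had 2282, 2179 and 2425 RPM in KO, 2092 and 2235 RPM in Het libraries, against 1672 and 1711 RPM in WT round spermatids (KO minus WT 0.44, SE 0.13, limma adjusted p = 0.138). In testis Adam3 went the other way, with 1166, 1068 and 1027 RPM in KO, 1186 RPM in Het and 1390 and 1353 RPM in WT libraries. All KO libraries lay below all WT libraries there, as was so for 14.1% of tested genes. The KO effect in round spermatids less that in testis was 0.78 for Adam3 (SE 0.20, limma adjusted p = 0.0681). In testis Clgn differed by 2.06 (limma adjusted p = 0.0902), Cmtm2a by -2.18 (0.0799) and Cmtm2b by -2.29 (0.101), and none of these passed. Gm45711 and Cmtm1 overlap Cmtm2a. Cmtm2a and Cmtm2b encode membrane proteins that mouse sperm need for ADAM3.

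Genes of GPI anchor synthesis and remodelling, which build and trim the anchor that TEX101, LY6K and DPEP3 carry, showed 0 calls between KO and WT. Of 27 tested in round spermatids 19 differences were positive, with a median of 0.32 beside 0.03 for all genes. Of 29 tested in testis 20 were positive, with a median of 0.24 beside 0.63, which turned to -0.24 after quantile normalization and -0.71 with libraries centred. Without KO replicate 1 that testis median was 1.42, and it was 0.06 to 0.57 with another library left out. Pigs and Pigt, subunits of the transamidase that attaches the anchor, had the smallest p. Pigs had 10.1, 20.9 and 22.9 RPM in KO, 25.6 and 22.1 RPM in Het libraries, against 4.85 and 3.73 RPM in WT round spermatids (KO minus WT 1.77, SE 0.40, limma adjusted p = 0.121). Pigt had 45.6, 48.6 and 51.5 RPM in KO, 46.9 RPM in the Het library, against 11.3 and 9.31 RPM in WT testis (2.14, SE 0.44, limma adjusted p = 0.0717). KO replicate 1 lay above WT in both cases. In WT round spermatids against WT testis 1 of 29 fell, Pigp (-1.54, SE 0.36, limma adjusted p = 0.0192, kept in 17 of 22), a subunit of the first enzyme of the pathway, which shares its place with Ttc3. The Pigp call was lost when any WT library was left out. In that comparison 2.39% of all 20085 tested genes fell, and the list median was -0.18 beside 0.20 for all genes.

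Membrane dipeptidases and genes of the angiotensin system, the families of Dpep3 and Ace, also showed 0 calls between KO and WT. Of 14 tested in testis 13 differences were positive, with a median of 1.28 beside 0.63 for all genes, 0.63 after quantile normalization and 0.34 with libraries centred. Dpep1, a dipeptidase known from kidney, had 16.1, 13.9 and 9.62 RPM in KO, 9.50 RPM in the Het library, against 0.217 and 0.127 RPM in WT testis (KO minus WT 3.57, SE 0.70, limma adjusted p = 0.0714), and Galnt2l overlaps it. The level of Dpep1 was highest in KO replicate 1. In that library the Sertoli markers summed to 18.6 RPM against 32.8 to 37.7 RPM in WT, the stromal markers to 205 RPM against 24.7 to 28.3 RPM in WT, and the Leydig markers to 111 RPM against 39.9 to 49.8 RPM in WT, and the part of other cells in the Dpep1 level was not tested. In round spermatids 6 of 11 were positive and the median was 0.14. WT round spermatids against WT testis gave 3 calls among 15 genes, all higher, where 9.09% of all 20085 tested genes passed with a higher value. The list median there was 0.49 beside 0.20 for all genes. Ace3, a paralog of Ace expressed in germ cells, had 71.5 and 58.0 RPM in WT round spermatids against 5.80 and 6.02 RPM in WT testis (3.24, SE 0.56, limma adjusted p = 0.00427). It kept its call in 21 of 22 alternatives, with an adjusted p of 0.0521 without round spermatid WT replicate 1. Mas1, a receptor of an angiotensin peptide, and Atp6ap2, the prorenin receptor, rose by 2.35 (limma adjusted p = 0.0187, kept in 16 of 22) and 2.40 (limma adjusted p = 0.0252, kept in 17 of 22). Airn overlaps Mas1.

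Other GPI-anchored germ cell proteins formed a list of 10 genes. In WT round spermatids against WT testis 2 of 10 rose, both sperm hyaluronidases, where 9.09% of all 20085 tested genes rose. Spam1 had 99.0 and 87.1 RPM in WT round spermatids against 3.25 and 7.10 RPM in WT testis (3.999, SE 0.37, limma adjusted p = 3.6e-04), and its call was kept in all 22 alternatives. Hyal5 had 101 and 102 RPM against 20.3 and 36.0 RPM (1.87, SE 0.35, limma adjusted p = 0.00632, kept in 17 of 22). The Hyal5 call was lost without testis WT replicate 1 and without either WT library of round spermatids. The list median was -0.21 beside 0.20 for all genes. Between KO and WT 0 were called, with a median of -0.32 in round spermatids over 9 genes and -0.25 in testis over 10, and Prss42, a serine protease of germ cells, had the smallest p in round spermatids (1.20, SE 0.25, limma adjusted p = 0.121).

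**Figure D4:**
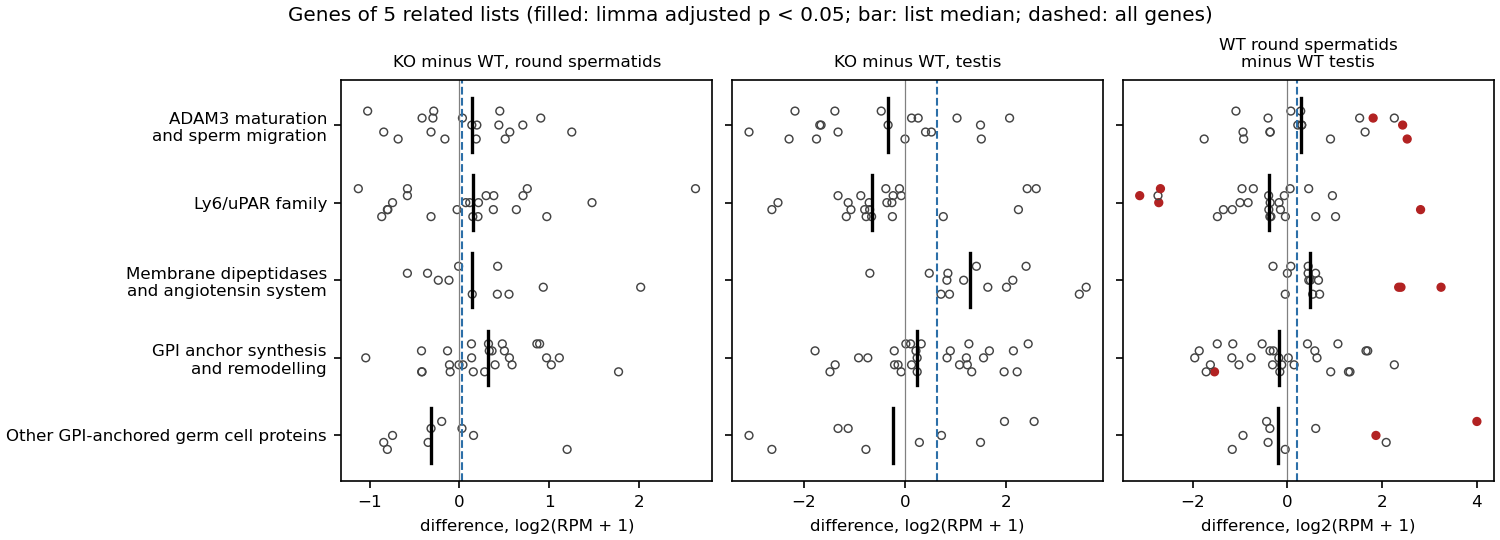
Difference on the log2(RPM + 1) scale of every tested gene of 5 lists, in 3 comparisons (KO minus WT in round spermatids, KO minus WT in testis, WT round spermatids minus WT testis). Filled points passed limma at an adjusted p under 0.05, the black bar is the list median and the dashed line the median of all tested genes. Filled points appear in the third panel alone, and the dipeptidase and angiotensin list has a median of 1.28 in testis.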

How the data were processed

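The authors deposited log2 RPM (reads scaled to 1000000 per library) for 30479 genes in 13 libraries. Per the submitters' processing notes, HISAT2 2.1.0 was used with build mm10, beside Trim Galore 0.6.6 and FastQC 0.11.8, while the sources used here do not give the counting program or its annotation. The steps between low values gave back whole reads, with 0.9 read standing for a gene at 0, and 99.704% to 99.995% of values in a library were whole within 0.01 read. All 13 columns matched a sample, with 0 left over. The deposited log2 values were made linear, and a gene without reads was given 0 RPM.

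A gene entered a fit when 2 or more of its libraries held 1 RPM or more, and log2(RPM + 1) was tested with limma 3.58.1 in R 4.3.3 (lmFit and eBayes with an intensity trend, two-sided, Benjamini-Hochberg, adjusted p under 0.05). Each cell type had its own fit. A joint fit of all 13 libraries gave WT round spermatids minus WT testis and the contrast of the KO effects. Because RPM values are not counts, limma's voom, run on those reads, was 1 of 9 alternatives besides leaving out each library. The KO minus WT fits were also run on simulated counts without library sets, so that check does not cover the split between the sets. The joint fit was not simulated.

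Symbols were matched to GENCODE M21 (96.82% found, 99.11% of those at the same coordinates), which gave exon lengths. Within a group, a chi-square measure between libraries gave at least 10.6 per degree of freedom, so no library was another one sequenced again. Libraries made separately from the same mouse or RNA could also differ so, and the measure cannot tell these apart. Replicate numbers were not used as pairs in the main fits. The members, the 5 lists, the markers and the comparisons were chosen with earlier results of these data known. In each list and each comparison of KO with WT or of the cell types, up to 3 genes with the smallest unadjusted p, any gene past the threshold, and for each member the 5 genes nearest in profile could be named, of which 1 is not reported here. Lypd4 and the neighbours of Tex101 and Ly6k were also named, after their values were seen.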

Additional observations from a re-analysis of the deposited data

Results flagged for a closer look

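Spam1, a GPI-anchored sperm hyaluronidase, was the 1 gene of the 5 lists whose KO effect differed between the cell types by the test of the difference itself. It had 93.9, 95.0 and 95.3 RPM in KO, 89.0 and 93.0 RPM in Het libraries, against 99.0 and 87.1 RPM in WT round spermatids. In testis it had 26.0, 38.8 and 36.3 RPM in KO, 42.2 RPM in the Het library, against 3.25 and 7.10 RPM in WT libraries. KO minus WT was 0.03 (SE 0.19) in round spermatids and 2.55 (SE 0.57) in testis, and the first less the second was -2.52 (SE 0.47, limma adjusted p = 0.0281), where 2.13% of 20085 genes passed and 1.84% were lower. All 3 KO testis libraries lay above both WT testis libraries, KO replicate 1 included, as was so for 28.2% of the 18570 genes tested in testis. The call held in 10 of 22 alternatives, with adjusted p between 3.82e-05 and 0.219. It was lost after quantile normalization, with libraries centred on their median and in 10 of the 13 fits that left out 1 library. Testis spermatid markers summed to 390 to 1130 RPM in KO and 1786 to 3935 RPM in WT, a fall carried by Tnp1, Tnp2, Prm1 and Prm2. Acrosomal genes of the same list, picked out after their values were seen, lay higher in every KO than in every WT testis library, as Spam1 did. Acrv1 had 126 to 162 RPM in KO and 60.5 to 74.4 RPM in WT, and Spaca1 90.3 to 184 RPM in KO and 36.4 to 37.1 RPM in WT. Spaca4, an acrosomal gene outside that list, did not follow, with 58.3, 12.5 and 12.5 RPM in KO against 48.8 and 45.7 RPM in WT testis. The part of spermatid number or stage in the Spam1 difference was not tested.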

How the results depend on the processing

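Counts of genes past the threshold moved most. KO minus WT in testis gave 0 genes, and 12535 with library quality weights, 152 with a replicate block, 6992 with the library set as a covariate and 0 to 11976 when 1 library was left out. KO minus WT in round spermatids gave 0, and 4 with libraries centred, 5706 with weights, 89 with the set and 0 to 5514 with 1 library left out. Het minus WT in round spermatids gave 0, and 837 after quantile normalization, 440 centred, 4815 with weights, 1589 with the block and 0 to 4739 with 1 library left out. WT round spermatids minus WT testis gave 2305, and 1182 centred, 6221 with weights, 7480 with the set and 670 to 5966 with 1 left out. The difference of KO effects gave 428, and 849 at a mean of at least 5 RPM, 1 after quantile normalization, 0 centred, 6946 with weights, 5275 with the set and 0 to 6211 with 1 left out. The highest count of each range came without KO replicate 1, of testis for both 5966 and 6211. The cause was not tested. With the set as a covariate, KO minus WT is KO replicate 1 minus the WT mean, because the WT libraries are all of set 1. The counts with the set for KO minus WT thus rest on 1 KO library. Those for the difference of KO effects rest on 1 KO library of each cell type.

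Among the members, KO minus WT in testis was -2.45 for Tex101 with the set, the value of KO replicate 1 alone. For Ly6k it was -1.20 after quantile normalization, -1.85 centred and -1.02 with the set. For Dpep3 it was 0.70 after quantile normalization and -0.63 centred. For Ace it was 0.15 and -0.17, and 0.25 to 1.31 with 1 library left out. In round spermatids it was 3.51 for Tex101 with weights and 0.97 with the set, and -0.10 for Dpep3 with the set. Het minus WT was 1.18 for Tex101 and -0.11 for Dpep3 with the set, and -0.32 for Ace centred. WT round spermatids minus WT testis, centred, was -2.23 for Ly6k, -0.45 for Dpep3 and 0.99 for Ace, which was 0.81 after quantile normalization and 0.81 to 1.86 with 1 left out. The difference of KO effects was 1.13 for Ly6k, -0.34 for Dpep3 and -0.38 for Ace after quantile normalization and 1.64, 0.85 and -0.18 centred. It was -0.28 for Dpep3 with the set, and -1.53 to -0.48 for Ace with 1 left out. With 1 library left out, the direction also turned for Dpep3 in WT round spermatids minus WT testis (0.04 without testis WT replicate 1), for Ace in Het minus WT (0.05 without WT replicate 2) and for the ADAM3 median in WT round spermatids minus WT testis (-0.01 without testis WT replicate 2). Without KO replicate 2, KO minus WT of Tex101 in round spermatids was 1.54. With the set, Dpep1 (-0.23) and Prcp (-0.048) turned sign for KO minus WT in round spermatids.

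The values within a set were chosen with earlier results known. By their deviations from the group mean, same-numbered KO and WT libraries of a cell type correlated at 0.003 to 0.046. Same-numbered WT libraries of the 2 cell types correlated at -0.023. In a group of 2 libraries the deviations mirror each other, and libraries with different numbers were not compared. The check therefore cannot show whether the numbers pair the libraries. Same-numbered KO libraries of the 2 cell types correlated at 0.283 to 0.504. KO replicate 1 is of set 1 in both cell types, and the part of the sets in these values was not tested. With the number as a block, WT round spermatids minus WT testis gave 2720 genes and the difference of KO effects 590. By counting error alone, depth limits genes under 0.143 to 0.407 RPM. Some zeros stood beside far higher levels. In KO replicate 1 of testis, Gpaa1 and Calr3 had 0 RPM, against at least 11.2 and 14.4 RPM in every other testis library. Loss of RNA from the small inputs was not tested. Every member had at least 139 reads in each library.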

Other observations

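Genes of the same families were also present at levels that the comparisons above do not describe. Lypd9, another Ly6/uPAR gene, had 164, 90.7 and 81.1 RPM in KO, 69.5 and 79.1 RPM in Het libraries, against 245 and 222 RPM in WT round spermatids. In testis Lypd9 had 173, 35.5 and 47.8 RPM in KO, 42.6 RPM in the Het library, against 392 and 378 RPM in WT libraries. Every KO and Het library lay below both WT libraries in both cell types, and KO replicate 1 was the KO library nearest to WT in each. All KO libraries lay below all WT libraries for 19.4% of tested genes in round spermatids and 14.1% in testis. All Het libraries did so for 23.2% in round spermatids. The difference between KO and WT was -1.13 (SE 0.28) in round spermatids and -2.51 (SE 0.68) in testis, and neither passed limma's test (adjusted p of 0.128 and 0.104).

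Spaca4, a GPI-anchored Ly6/uPAR protein of the sperm acrosome, had 58.7, 38.9 and 33.8 RPM in KO, 32.4 and 29.4 RPM in Het libraries, against 67.5 and 77.0 RPM in WT round spermatids (KO minus WT -0.74, SE 0.28, limma adjusted p = 0.178). The KO libraries all lay below WT, as was so for 19.4% of tested genes, and Fam83e overlaps Spaca4. Ly6a, known as a marker of stem cells and stromal cells, had 0, 19.1 and 10.8 RPM in KO, 13.5 and 10.9 RPM in Het libraries, against 0 RPM in both WT round spermatid libraries (KO minus WT 2.63, SE 1.02, limma adjusted p = 0.188). The round spermatid libraries with Ly6a reads were the 4 whose 6 stromal markers summed to 464 to 1031 RPM, against 2.72 to 4.61 RPM in the 3 without. In testis Ly6a had 17.9, 12.2 and 5.38 RPM in KO, 8.45 RPM in the Het library, against 2.01 and 0.253 RPM in WT libraries. The stromal markers there summed to 205, 913 and 1381 RPM in KO, 890 RPM in Het, and 24.7 and 28.3 RPM in WT. The highest Ly6a level of testis was thus not in the library with the highest stromal sum. The part of other cells was not tested.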
